A study of Mus musculus with 6 samples.

Results

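The genes described here belong to families of zinc-dependent endopeptidases that act at the cell surface and in the extracellular matrix, or encode their inhibitors. They are the matrix metalloproteinases (*Mmp* genes) and the tissue inhibitors of metalloproteinases that bind these enzymes (*Timp* genes). The others are the membrane-anchored ADAM proteins (*Adam* genes) and the secreted ADAMTS proteins with thrombospondin repeats (*Adamts* genes). Members were taken by symbol, as *Mmp*, *Timp*, *Adam* or *Adamts* followed by a number. The families themselves were picked for description with earlier results of these data known. The mouse gene table used held 80 such genes, and 79 of them, with 120 probes, were among the 22911 named genes of the array. *Mmp27* was the member without a probe. The array carried 22 *Mmp*, 4 *Timp*, 34 *Adam* and 19 *Adamts* genes.

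Both groups came from OS3, a glial line labeled as male C3H brain, which per the study's methods came from newborn C3H/HeN mice and was immortalized with SV40. WT cells (labeled OS3-vector) carried the empty vector and IG27 cells (labeled OS3-H3F3A_K27M) carried a plasmid for histone H3.3 with lysine 27 replaced by methionine, so the SV40 immortalization was shared by both groups and the mutant histone was added to cells that kept their own H3.3 genes. Each group had 3 samples, grown for 2 days in MEM-α with 10% serum, insulin and D-glucose, and each sample was hybridized to 1 single-color array. IG27 came from drug selection, after which several clones were established, and the labels do not say how many clones the samples hold, so the effect of the histone and that of a clone cannot be told apart. Nothing in the labels ties the 3 samples of a group to separate transfections, so p-values measure the spread between samples of 1 line and that spread may be technical.

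Of 56605 probes that are not controls, 58.8% to 61.2% exceeded background by the scanner software's flag (well above background) on the 5 arrays whose scanner output is complete, and 14898 named genes were tested with limma. Values below are log2 of the processed signal minus the 75th percentile of the array. Negative values therefore mark probes dimmer than that percentile. *H3f3a*, the gene of the expressed histone, differed by -0.26 on the log2 scale (SE, the standard error of the fitted difference, 0.08; adjusted p = 0.0237), and whether its probes read the plasmid is not stated in the sources used here. Glial markers were read in part: 4 of 7 astrocyte and 5 of 5 oligodendrocyte markers carried this flag on all complete arrays of both groups, as did 4 of 5 markers of oligodendrocyte progenitors in WT and 5 of 5 in IG27 cells. *Gja1* carried it on no complete array, *Slc1a3* on no WT array and *Aqp4* on 1 of 2 complete IG27 arrays. Summed linear levels (2 to the power of the normalized value) of astrocyte markers were 95.8 to 106 in WT and 55.1 to 63.4 in IG27 cells. Those of oligodendrocyte markers were 48.7 to 58.9 and 30.6 to 32.2, and those of progenitor markers 58.7 to 61.7 and 57.6 to 59.3. Such sums follow the brightest markers, and single markers moved both ways. Among astrocyte markers 2 were called higher (adjusted p under 0.05), *S100b* and *Slc1a3*, and 3 lower, with -1.07 on the log2 scale for *Gfap*. Of progenitor markers *Pdgfra*, *Olig1* and *Olig2* were called higher (2.36, 1.48 and 1.51) and *Sox10* lower (-0.37). Among oligodendrocyte markers 1 was called higher and 2 lower. Over all genes tested 30.5% were called higher and 40.0% lower. Markers of other cells were also read. Of 6 microglial markers 3 passed in WT and 4 in IG27 cells, with a summed linear level of 14.4 to 15.4 in WT and 13.6 to 14.1 in IG27 cells, while *Ptprc* and *Cx3cr1* were not well above background on any complete array. Of 6 fibroblast markers 3 passed in WT and 4 in IG27 cells, with summed levels of 150 to 154 in WT and 134 to 142 in IG27 cells, and *Lum* was not well above background on any. Of 5 endothelial markers 1 passed in WT and 2 in IG27 cells, with summed levels of 0.172 to 0.194 and 2.60 to 2.67. *Cdh5*, *Tek* and *Cldn5* were not well above background on any. The rise of this sum is that of *Kdr*, at least 135-fold higher, while *Pecam1* was called lower (-0.27 on the log2 scale). Of 5 neuronal markers 3 passed in WT and 2 in IG27 cells, with summed levels of 17.6 to 20.002 and 6.68 to 7.43, and *Rbfox3* and *Syt1* were not well above background on any. Their part in the results below was not tested. Both groups were cultures of 1 line, so these markers describe what that line expressed. In such bulk samples fewer expressing cells and less RNA per cell cannot be told apart.

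The active enzymes of these families share a catalytic zinc and are made as inactive precursors. Matrix metalloproteinases cleave collagens, laminins and other matrix proteins, and the membrane-type members do so at the cell surface. ADAM proteases shed the extracellular part of growth factors, cytokine receptors, adhesion molecules and Notch ligands and receptors, whereas ADAM11, ADAM22 and ADAM23 lack protease activity and act as receptors of LGI proteins. ADAMTS proteases cut the chondroitin sulfate proteoglycans that fill the brain matrix, trim procollagens or process fibrillin. TIMPs block the active sites of these enzymes, and glioma invasion is one of the settings in which the balance is studied.

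Expression moved in both directions within the families. Of the 79 genes on the array, 41 were tested, 12 were higher in IG27 cells, 18 were lower and 11 did not pass the test (limma, two-sided, adjusted p under 0.05). Thus 73.2% of the members tested were called, beside 70.5% of all genes tested. The share was 29.3% for higher members beside 30.5% of all genes, and 43.9% for lower members beside 40.0%. These shares lie close to the background. The members called with a difference of at least 2-fold were 14 (34.1%, beside 23.1% of all genes), of which 8 were higher (19.5%, beside 11.5%) and 6 were lower (14.6%, beside 11.7%). An unadjusted p of at most 0.05 was given by 31 of 41 members (75.6%, beside 72.9% of all genes). The values of the groups did not overlap for 31 of 41 members (75.6%, beside 75.7% of all genes). The median log2 fold change of the members was -0.10, beside -0.07 for all genes tested, and the median size without sign was 0.63 beside 0.47. Of the 41, 7 passed the filter through 1 group only, namely *Adamts9*, *Adam23*, *Adamts10* and *Timp4*, which were higher, and *Adam5*, *Adam21* and *Adam26b*, which were not called. The filter itself favors a higher value in IG27 for a member that passed through IG27 only, so that direction is no separate result. It does not fix the sign, since *Adam5* passed through WT only and had a fitted difference of 0.08. Among the 34 members that passed in both groups, 4 (11.8%, beside 7.95% of all such genes) were called at least 2-fold higher and 6 (17.6%, beside 10.5%) at least 2-fold lower. Of 15 members with more than 1 probe tested, 14 had probes of the same sign and 5 were called by some of their probes only.

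**Figure D1:**
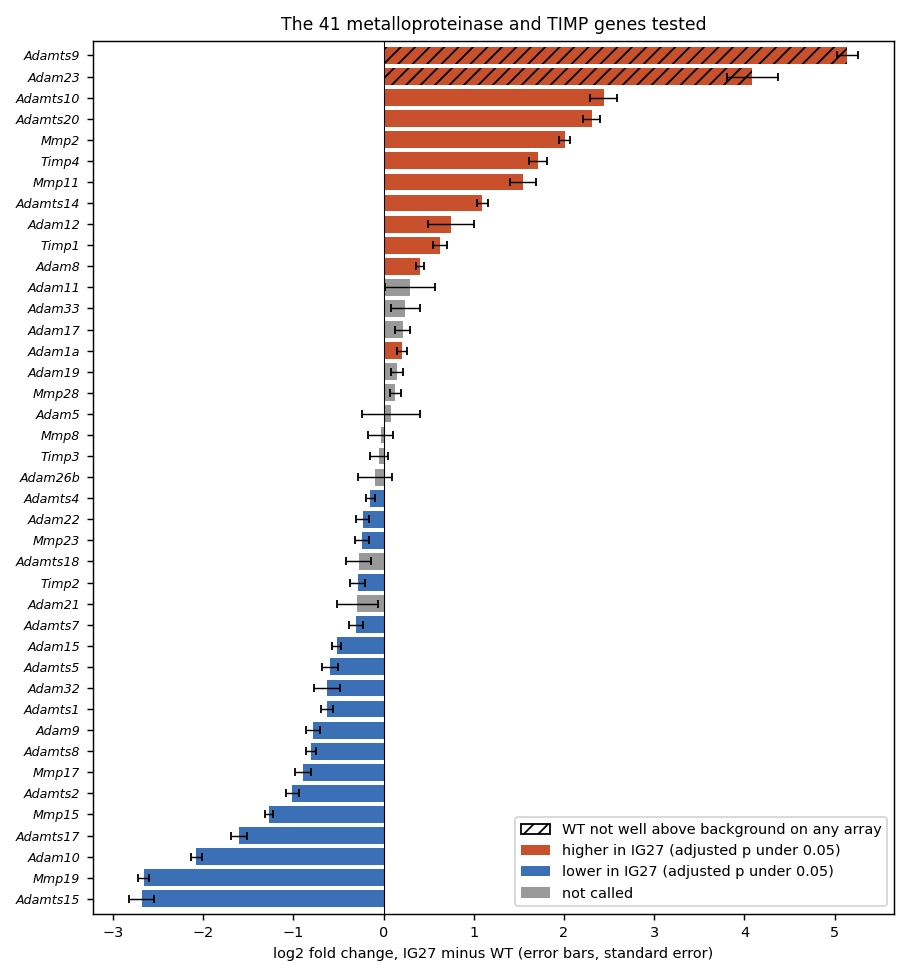
Log2 fold change (IG27 minus WT) of the 41 metalloproteinase and TIMP genes tested, with standard errors (SE); red bars were higher, blue bars lower and gray bars not called. The fitted values run from -2.68 (*Adamts15*) to 5.14 (*Adamts9*), and for the hatched bars (*Adamts9* and *Adam23*), whose WT signal was not well above background, the text gives a bound in place of the fitted value.

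**Figure D2:**
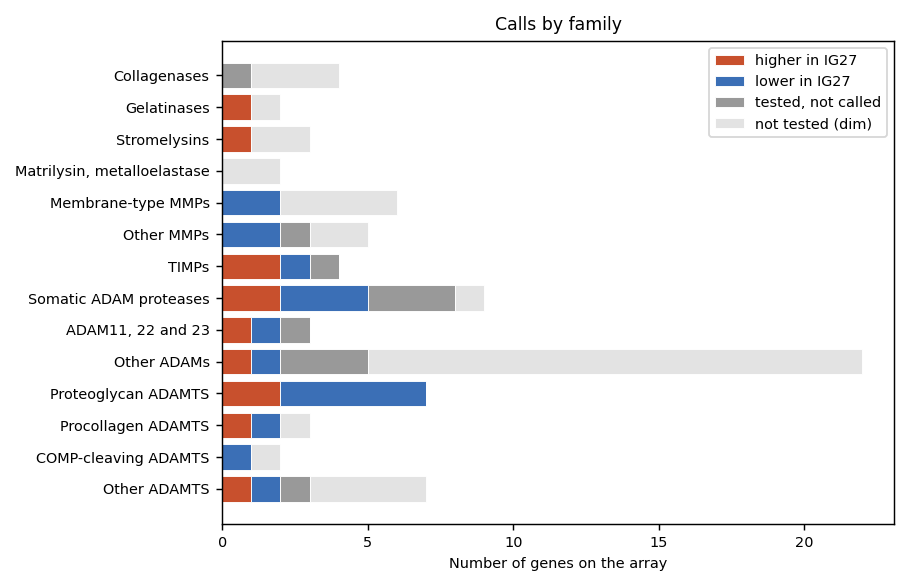
Number of genes on the array in each family, divided into higher in IG27, lower in IG27, tested but not called, and not tested because the probes were dim. All 7 proteoglycan-cleaving ADAMTS genes were called (beside 70.5% of all genes), 2 higher and 5 lower, of which *Adamts4* lost its call without any 1 of the arrays, while 14 of the 22 MMP genes were not tested.

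RefSeq promoter windows (assembly GRCm38.p6, 250 bases before to 50 bases after the start, 300 in all) were matched by symbol for 49 of the 79 genes, in 54 windows. Windows were searched on both strands for the AP-1 element TGANTCA, which is known from promoters of several *Mmp* genes, for the GC box GGGCGG and for TATAAA. Of all 32851 windows 7.81% held the AP-1 element, 35.7% the GC box and 13.6% TATAAA. Among member windows 24.1% (13 of 54) held the AP-1 element. They were spread unevenly: 0 of 9 windows of higher genes, 0 of 10 of lower genes, 1 of 10 of tested genes not called (*Adam19*) and 12 of 25 of genes not tested held one. Of those 12, 8 belong to *Mmp* genes of chromosome 9. Only 9 of the 12 higher and 9 of the 18 lower members had a window, and *Mmp2*, *Mmp19*, *Adamts10* and *Adamts15* had none. The GC box was in 66.7% of windows of higher genes, 70.0% of lower genes, 5 of 10 windows of genes not called and 5 of 25 windows of genes not tested, and TATAAA was found in 52.0% of windows of genes not tested. The median number of CpG dinucleotides per window was 19 for higher, 22.5 for lower and 1 for untested genes, beside 7 over all windows. These are descriptions of letters in short windows, and no factor binding was measured.

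Windows of 5 genes are printed to show this contrast, 5′ to 3′ on the strand of the gene, with AP-1 elements, GC boxes and TATAAA in capitals. *Adamts9* (chr6:92943485-92943784, minus strand) and *Adam23* (chr1:63445641-63445940, plus strand) were the members with a bound in IG27 over WT cells, and *Adam10* (chr9:70678732-70679031, plus strand) was the sheddase with the largest fall. *Mmp3* (chr9:7445572-7445871, plus strand) and *Mmp13* (chr9:7272264-7272563, plus strand) stand for the run of *Mmp* genes on chromosome 9, which was read from dim probes.
Adamts9 promoter: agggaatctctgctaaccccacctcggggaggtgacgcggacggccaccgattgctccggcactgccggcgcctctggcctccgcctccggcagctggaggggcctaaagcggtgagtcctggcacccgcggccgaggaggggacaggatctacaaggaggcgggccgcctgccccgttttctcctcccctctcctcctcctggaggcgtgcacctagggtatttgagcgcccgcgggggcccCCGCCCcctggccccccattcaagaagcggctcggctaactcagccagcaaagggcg
Adam23 promoter: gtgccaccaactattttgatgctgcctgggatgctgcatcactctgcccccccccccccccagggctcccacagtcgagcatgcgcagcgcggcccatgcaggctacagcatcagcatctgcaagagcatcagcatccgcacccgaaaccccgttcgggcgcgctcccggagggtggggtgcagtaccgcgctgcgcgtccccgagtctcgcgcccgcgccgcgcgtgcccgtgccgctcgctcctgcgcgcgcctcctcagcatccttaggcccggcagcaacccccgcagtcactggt
Adam10 promoter: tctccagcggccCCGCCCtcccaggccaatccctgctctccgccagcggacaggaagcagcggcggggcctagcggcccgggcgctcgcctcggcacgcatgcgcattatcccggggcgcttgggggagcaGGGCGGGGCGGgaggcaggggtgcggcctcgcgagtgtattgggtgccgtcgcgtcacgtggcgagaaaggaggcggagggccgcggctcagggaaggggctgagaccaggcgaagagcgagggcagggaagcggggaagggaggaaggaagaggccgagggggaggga
Mmp3 promoter: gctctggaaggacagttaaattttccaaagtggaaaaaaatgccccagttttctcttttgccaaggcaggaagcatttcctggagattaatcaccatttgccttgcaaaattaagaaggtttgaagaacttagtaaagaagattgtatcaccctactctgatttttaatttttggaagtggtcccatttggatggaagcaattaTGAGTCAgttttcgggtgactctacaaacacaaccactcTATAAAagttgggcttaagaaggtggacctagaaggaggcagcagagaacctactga
Mmp13 promoter: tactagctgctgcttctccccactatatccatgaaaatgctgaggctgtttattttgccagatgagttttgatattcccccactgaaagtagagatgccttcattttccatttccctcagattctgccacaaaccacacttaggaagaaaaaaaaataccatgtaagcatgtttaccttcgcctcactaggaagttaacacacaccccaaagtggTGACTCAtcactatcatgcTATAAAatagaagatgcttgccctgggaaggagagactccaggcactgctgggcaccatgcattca

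The *Adamts9* window held 25 CpG dinucleotides and 1 GC box, the *Adam23* window 31 and none of the motifs searched, and the *Adam10* window 32 and 3 GC boxes, of which a pair overlap in 1 run. The *Mmp3* and *Mmp13* windows each held 1 CpG dinucleotide, with the AP-1 element followed downstream by TATAAA. All 9 *Mmp* genes of chromosome 9 on the array had a window, 11 in all, and 8 of the 11 windows, those of 8 genes, held both the AP-1 element and TATAAA (beside 1.54% of all windows). *Mmp8*, whose window lacked the AP-1 element, was the member of this group that was tested.

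Among the matrix metalloproteinases, 8 of 22 genes were tested, 2 were higher in IG27 cells and 4 were lower. These counts, and those of the other families below, stand beside 30.5% of all genes called higher and 40.0% called lower. *Mmp2* encodes gelatinase A, a secreted enzyme that cleaves denatured collagen and type IV collagen of basement membranes. Its normalized log2 intensity was -0.62, -0.72 and -0.59 in WT replicates 1 to 3 and 1.30, 1.35 and 1.44 in IG27 replicates 1 to 3. All IG27 samples lay above all WT samples, with a spread inside each group far smaller than the gap. The log2 fold change was 2.01 (SE 0.06, adjusted p = 1.01e-06 from limma), or 4.02-fold higher. *Mmp11* encodes stromelysin-3, which is activated by furin inside the cell. It read -4.14, -3.65 and -3.92 in WT and -2.53, -2.23 and -2.29 in IG27 samples. The groups did not overlap, and the log2 fold change was 1.55 (SE 0.14, adjusted p = 1.30e-04). With normexp background correction it was 0.84.

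The largest fall among these genes was that of *Mmp19*, which encodes a secreted enzyme that cleaves basement membrane proteins. It read 4.04, 3.95 and 4.10 in WT and 1.43, 1.38 and 1.30 in IG27 samples. Every WT sample was far above every IG27 sample, and the log2 fold change was -2.66 (SE 0.06, adjusted p = 4.07e-07), with -2.11 by the second probe. *Mmp15*, the gene of the transmembrane enzyme MT2-MMP, read 0.11, 0.12 and 0.12 in WT and -1.12, -1.14 and -1.20 in IG27 samples. Replicates were almost identical within each group, and the log2 fold change was -1.27 (SE 0.05, adjusted p = 2.10e-06). *Mmp17*, whose product MT4-MMP is anchored by glycosylphosphatidylinositol, was lower by a smaller amount (log2 fold change -0.90, SE 0.09). *Mmp23* was lower too (-0.24, adjusted p = 0.0359), but this call was lost without any of WT replicates 1, 2 and 3 or IG27 replicates 1 and 2 (adjusted p of 0.0543 to 0.0897). *Mmp8*, neutrophil collagenase, and *Mmp28*, epilysin, were not called, with log2 fold changes of -0.03 and 0.13. Without WT replicate 2 *Mmp28* passed the test (0.17, adjusted p = 0.0487).

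The remaining 14 *Mmp* genes were not tested, since no probe exceeded background on all complete arrays of a group. They included *Mmp9*, gelatinase B, *Mmp14*, the gene of MT1-MMP that activates the precursor of MMP2 together with TIMP2, the collagenases *Mmp1a*, *Mmp1b* and *Mmp13*, the stromelysins *Mmp3* and *Mmp10* and matrilysin, *Mmp7*. The single *Mmp14* probe gave a linear processed signal of 5.69, 5.65 and 5.46 in WT and 6.61, 5.68 and 6.05 in IG27 samples, not well above background on any complete array. The brighter of 2 *Mmp9* probes gave 5.65, 5.17 and 10.9 in WT and 6.23, 9.84 and 5.46 in IG27 samples, again not well above background on any. These values bound the signal of these probes and were not read as a comparison. Over all families 38 members were not tested. Of these, 30 were not well above background on any complete array by any probe, 8 were so on 1 or 2 arrays, and 27 had a single probe.

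**Figure D3:**
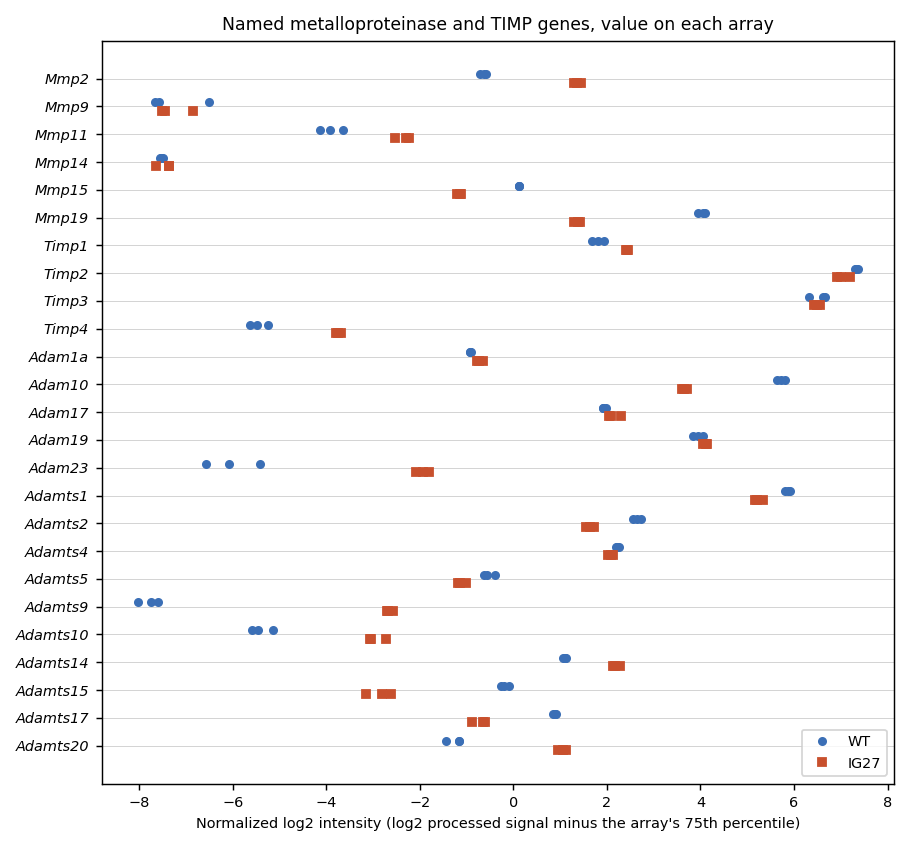
Normalized log2 intensity (log2 of the processed signal minus the 75th percentile of the array) of the named genes on each array, with WT samples as blue circles and IG27 samples as red squares. The 3 samples of each group lie close together for most genes, with *Mmp2* above and *Mmp19* and *Adam10* below the WT values in IG27 samples, and *Mmp9* and *Mmp14* are dim on every array.

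All 4 *Timp* genes were tested, and they did not move together. *Timp1*, an inhibitor that growth factors and cytokines induce, read 1.67, 1.93 and 1.80 in WT and 2.44, 2.44 and 2.40 in IG27 samples. The IG27 samples all lay above the WT samples, and the log2 fold change was 0.63 (SE 0.07, adjusted p = 4.05e-04 from limma). *Timp4* read -5.26, -5.63 and -5.47 in WT and -3.69, -3.74 and -3.80 in IG27 samples. The groups did not overlap, but WT signal was well above background on 2 of 3 arrays by this probe and on none by the other. The log2 fold change was 1.71 (SE 0.10, adjusted p = 1.63e-05) by the brighter probe and 0.63 with normexp background correction. *Timp4* passed the filter through IG27 only, so its adjusted p belongs to a fitted difference that rests partly on dim WT values. The other probe gives no measured difference, since its WT signal was not well above background.

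*Timp2* encodes the inhibitor that also carries the MMP2 precursor to the cell surface. It read 7.38, 7.31 and 7.32 in WT and 7.20, 6.93 and 7.01 in IG27 samples. All IG27 values were below all WT values, by little, and the log2 fold change was -0.29 (SE 0.08, adjusted p = 0.0179). This call was lost without WT replicate 1 (-0.27, adjusted p = 0.0520), without IG27 replicate 2 (-0.23, adjusted p = 0.0518), without IG27 replicate 3 (-0.27, adjusted p = 0.0562) and with the slide row as a block (-0.26, adjusted p = 0.122). The dimmer *Timp2* probe gave -0.15 and was not called. *Timp3* encodes a matrix-bound inhibitor that also blocks ADAM17 and the proteoglycan-cleaving ADAMTS enzymes. It read 6.66, 6.32 and 6.62 in WT and 6.55, 6.42 and 6.48 in IG27 samples. The groups overlapped, and the log2 fold change was -0.05 (SE 0.10, adjusted p = 0.684), of unsettled sign.

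Of the 34 *Adam* genes, 16 were tested, 4 were higher, 5 were lower and 7 were not called. Among 9 genes of ADAM proteases found in many tissues, 8 were tested, with 2 higher and 3 lower. *Adam10* encodes the sheddase that cleaves Notch receptors, their ligands and N-cadherin. It read 5.65, 5.73 and 5.81 in WT and 3.71, 3.64 and 3.60 in IG27 samples. The gap between the groups was many times the spread inside them, and the log2 fold change was -2.08 (SE 0.06, adjusted p = 9.77e-07 from limma), 4.22-fold lower. The second probe of *Adam10* gave -1.93. *Adam17* encodes the related sheddase that releases tumor necrosis factor and ligands of the epidermal growth factor receptor. It read 1.98, 1.91 and 1.93 in WT and 2.31, 2.08 and 2.05 in IG27 samples. The values of IG27 samples were all above those of WT samples, but the log2 fold change of 0.21 (SE 0.08, adjusted p = 0.0559) did not pass the test. It passed without IG27 replicate 3 (0.26, adjusted p = 0.0470), with quantile normalization (0.33, adjusted p = 0.00796) and by the dimmer probe (0.33). Normexp background correction followed by quantile normalization (adjusted p = 0.0291), the mean of probes (0.028) and trend and robust moderation (0.0244) also gave a call. So did the replicate number as a block (0.0462) and a filter on all complete arrays (0.0473). In 10 of 17 alternatives *Adam17* stayed uncalled.

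Of the other ADAM proteases, *Adam9* (log2 fold change -0.78, SE 0.08) and *Adam15* (-0.52, SE 0.05, and from -0.60 to -0.52 over 3 probes) were lower. Both encode membrane proteases that cut adhesion molecules and growth factors. *Adam8*, best known from leukocytes and activated glia, was higher by 0.41 (SE 0.04). *Adam12*, which sheds the heparin-binding growth factor HB-EGF, was called higher (0.75, adjusted p = 0.0386) although its groups overlapped. That call was lost without WT replicate 1 (0.60, adjusted p = 0.100), WT replicate 3 (0.59, adjusted p = 0.108), IG27 replicate 1 (0.75, adjusted p = 0.0939), IG27 replicate 2 (0.66, adjusted p = 0.110) or IG27 replicate 3 (0.83, adjusted p = 0.0603), and the difference was 0.16 with the slide row as a block. *Adam19*, meltrin beta, a protease of neuregulins, read 3.94, 3.85 and 4.05 in WT and 4.11, 4.05 and 4.13 in IG27 samples. These groups were separated by a sliver and the difference of 0.15 (SE 0.07, adjusted p = 0.0795) did not pass, but it did without WT replicate 3 (0.20, adjusted p = 0.0344), with quantile normalization (0.31, adjusted p = 0.00326), with normexp background correction (0.40, adjusted p = 6.47e-04), with the slide row as a block (0.25, adjusted p = 0.0408) and with trend and robust moderation (adjusted p = 0.0438). *Adam33* was not called, and *Adam28* was not tested.

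The genes of ADAM11, ADAM22 and ADAM23 moved apart. *Adam23*, whose product binds LGI proteins and integrins at neuronal and glial surfaces, read -6.58, -5.43 and -6.07 in WT and -1.93, -2.08 and -1.80 in IG27 samples. No WT array was well above background, whereas both complete IG27 arrays were, so the difference is a bound. Set against the lowest signal that counted as well above background on each WT array, or the probe's own signal where that was higher, *Adam23* was at least 13.9-fold higher in IG27 cells. The adjusted p of the fit, 3.32e-05, belongs to the fitted difference from these dim WT values and does not test the bound. *Adam22* was lower by little (-0.23, SE 0.07), and its call was lost without WT replicate 1 (-0.22, adjusted p = 0.0636), WT replicate 2 (-0.19, adjusted p = 0.0706), IG27 replicate 1 (-0.22, adjusted p = 0.0673) or IG27 replicate 3 (-0.20, adjusted p = 0.0761). *Adam11* was not called by its brighter probe (0.29, adjusted p = 0.387), which read -2.37 on WT replicate 1 and -1.25 on WT replicate 2, and was called by the other (0.77).

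Of 22 other *Adam* genes, most of which act in sperm and testis, 5 were tested. *Adam1a*, of the fertilin group, read -0.90, -0.94 and -0.94 in WT and -0.78, -0.65 and -0.73 in IG27 samples. Its groups did not overlap, and the difference of 0.20 (SE 0.05, adjusted p = 0.0140) was the smallest rise called among the members. With normexp background correction it was 0.08 and with the slide row as a block 0.21, neither past the test. *Adam32* was lower (-0.63, SE 0.15), and *Adam5*, *Adam21* and *Adam26b*, read from dim probes, were not called. *Adam21*, at -0.29, passed the test without WT replicate 3 (-0.52, adjusted p = 0.0264), with quantile normalization (-0.57, adjusted p = 0.0400) and with the slide row as a block (-0.76, adjusted p = 0.0157). It was well above background on neither complete IG27 array. Likewise *Adam5* without IG27 replicate 3 (0.44, adjusted p = 0.0467) passed the test.

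The *Adamts* genes held members that changed widely in both directions. Of 19 genes, 13 were tested, 4 were higher, 8 were lower and 1, *Adamts18*, was not called. The 7 genes of enzymes that cleave aggrecan, versican, brevican and neurocan were all tested and called, beside 70.5% of all genes, although the *Adamts4* call was lost in 12 of 17 alternatives and a second *Adamts5* probe was not called. *Adamts9* read -7.74, -7.59 and -8.03 in WT and -2.67, -2.70 and -2.57 in IG27 samples. It was not well above background on any WT array and was so on both complete IG27 arrays, which made it at least 8.72-fold higher in IG27 cells. Its adjusted p from limma, 3.54e-07, again belongs to the fitted difference and does not test the bound. *Adamts20*, the closest relative of *Adamts9*, which acts on versican in migrating melanoblasts, read -1.17, -1.16 and -1.43 in WT and 1.07, 1.13 and 0.96 in IG27 samples. Both groups were above background on every complete array and did not overlap. Its log2 fold change was 2.31 (SE 0.09, adjusted p = 3.31e-06), with 0.87 by the dimmer probe and 1.59 for their mean.

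The other 5 proteoglycan-cleaving enzymes were lower. *Adamts15* read -0.09, -0.25 and -0.20 in WT and -2.82, -2.62 and -3.15 in IG27 samples. The groups lay far apart, and the log2 fold change of -2.68 (SE 0.14, adjusted p = 9.50e-06), 6.42-fold lower, was close to that of *Mmp19* (-2.66), and the order of these 2 falls changed without WT replicate 1 (-2.64 against -2.65), without IG27 replicate 3 (-2.54 against -2.62) and with normexp background correction (-2.29 against -2.50). *Adamts8* had a log2 fold change of -0.80 (SE 0.06). *Adamts1*, induced by inflammation and in reactive glia, read 5.91, 5.81 and 5.87 in WT and 5.16, 5.20 and 5.34 in IG27 samples. All IG27 samples lay below all WT samples, and the log2 fold change was -0.63 (SE 0.07, adjusted p = 2.16e-04).

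*Adamts5* and *Adamts4* encode the main aggrecanases of cartilage and also cut the lecticans of brain. *Adamts5* read -0.38, -0.62 and -0.57 in WT and -1.01, -1.15 and -1.19 in IG27 samples. Without overlap between the groups, its log2 fold change was -0.59 (SE 0.08, adjusted p = 9.58e-04), but the second probe gave 0.0039 and was not called, the one member whose probes differed in sign. *Adamts4* read 2.19, 2.22 and 2.27 in WT and 2.09, 2.12 and 2.02 in IG27 samples. The IG27 values lay just under the WT values and the log2 fold change of -0.15 (SE 0.05, adjusted p = 0.0441) was the smallest called. This call was lost without each of the 6 arrays in turn (adjusted p of 0.0566 to 0.127), and the difference was -0.02 with quantile normalization.

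The procollagen N-proteinases, which trim fibrillar procollagens, moved in opposite directions. *Adamts14* read 1.06, 1.11 and 1.12 in WT and 2.28, 2.13 and 2.18 in IG27 samples. IG27 samples were all higher, and the log2 fold change was 1.10 (SE 0.06, adjusted p = 1.05e-05), with 1.08 by the second probe. *Adamts2* read 2.73, 2.56 and 2.65 in WT and 1.72, 1.64 and 1.55 in IG27 samples. IG27 samples were all lower, and the log2 fold change was -1.01 (SE 0.07, adjusted p = 3.38e-05), whereas the dimmer probe gave -0.34 and was not called. *Adamts3* was not tested.

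*Adamts10* encodes a fibrillin-binding enzyme and read -5.45, -5.13 and -5.59 in WT and -3.05, -3.07 and -2.73 in IG27 samples. WT signal was well above background on 1 of 3 arrays, and the groups did not overlap. The log2 fold change was 2.44 (SE 0.15, adjusted p = 1.92e-05), and 0.87 with normexp background correction, while the second probe was not well above background on any WT array. *Adamts10* passed the filter through IG27 only, so its adjusted p belongs to a fitted difference that rests partly on dim WT values. *Adamts17*, also a fibrillin-related enzyme, read 0.84, 0.89 and 0.92 in WT and -0.60, -0.66 and -0.89 in IG27 samples. All IG27 samples lay below the WT samples, with a log2 fold change of -1.60 (SE 0.09, adjusted p = 1.07e-05) and from -1.60 to -0.93 over 3 probes. *Adamts7*, which cleaves cartilage oligomeric matrix protein, was lower by less (-0.30, SE 0.07) and not past the test with the slide row as a block (-0.31, adjusted p = 0.0647). *Adamts18*, not called at -0.28, passed without WT replicate 3 (-0.43, adjusted p = 0.00474) and with quantile normalization (-0.54, adjusted p = 0.00547). Normexp background correction also gave 1.81 for *Adamts9* and 2.03 for *Adam23* on the log2 scale, both higher. It was run on the 5 complete arrays with an offset of 50, which pulls dim values together, and then quantile normalization. *Adam23* differed by 3.49 with the slide row as a block.

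The members lie unevenly over the genome, and the direction of change differed by chromosome for all genes. Of the 79 genes, 17 are on chromosome 8 and 13 on chromosome 9. On chromosome 9 the median log2 fold change of all 813 genes tested was -0.64 and 71.1% of them were called lower. All 5 members tested there were below 0 and 4 were called, *Adamts15*, *Adam10*, *Adamts8* and *Adamts7*. On chromosome 8 the median of 769 genes was -0.67 with 74.3% called lower, and of 7 members tested 5 were below 0 and 3 were called lower, *Mmp15*, *Adam9* and *Adam32*. *Mmp2* rose on that chromosome, where 8.84% of genes were called higher. *Timp1* rose on chromosome X, whose median was -0.59. *Mmp19*, *Adamts17* and *Adamts2* fell on chromosomes whose medians were 0.08, 0.13 and -0.12. Other rises lay on chromosomes with many genes called higher. *Adamts20* is on chromosome 15 (median 0.30, 54.5% called higher), *Adamts10* on 17 (0.16, 44.5%), and *Mmp11* and *Adamts14* on 10 (0.08, 41.2%). *Adamts9* and *Timp4* rose on chromosome 6 and *Adam23* on chromosome 1, whose medians were -0.21 and -0.01. The part of these chromosome-wide shifts in the members' values was not tested. Pairs next to each other in gene order with both genes called were *Adamts15* with *Adamts8*, *Adamts1* with *Adamts5*, and *Adam32* with *Adam9*, all lower. The first and last pair lie on chromosomes 9 and 8, where 71.1% and 74.3% of all genes were called lower. In the other pair, the second *Adamts5* probe was not called. The share of neighboring genes with a common direction over the whole genome was not taken.

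**Figure D4:**
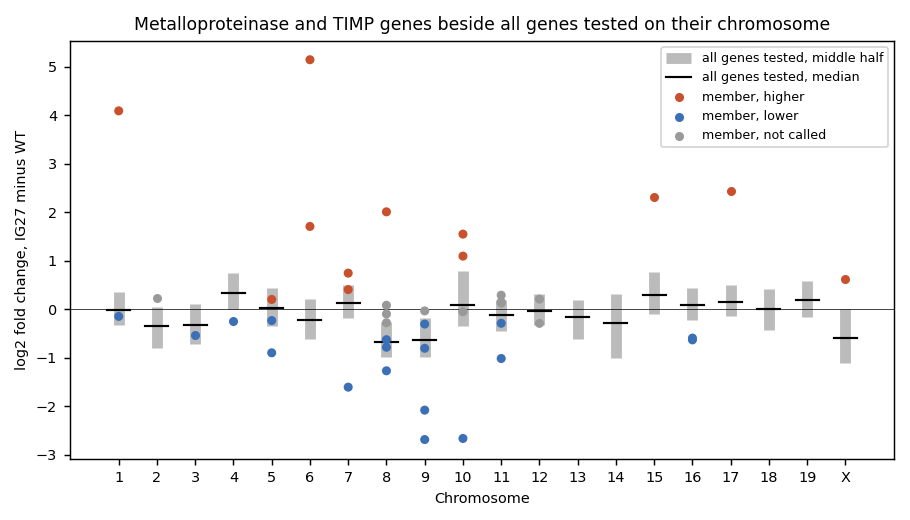
Log2 fold change (IG27 minus WT) of each member tested (points colored by call) beside the median (black line) and the range from the lower to the upper quartile (gray bar) of all genes tested on its chromosome. Members on chromosome 9 all lie below 0, where the chromosome's median is -0.64, while *Mmp2* on chromosome 8 and *Timp1* on chromosome X lie above medians of -0.67 and -0.59.

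Genes that work with these families were read from lists of activators, inhibitors, partners and substrates. The counts of every list below stand beside 30.5% of all genes tested called higher and 40.0% called lower. Whether a list departs from these shares was not tested. Of 18 genes of MMP activators and the plasminogen system, 13 were tested, 4 were higher and 4 lower. *Klk8*, neuropsin, a secreted serine protease of brain, read -1.17, -1.07 and -1.03 in WT and 3.59, 3.62 and 3.63 in IG27 samples. Its groups were far apart, with a log2 fold change of 4.70 (SE 0.05). *Klk6*, a related kallikrein that cuts myelin proteins, was at least 3.43-fold higher. *Plaur*, the urokinase receptor, rose by 1.96 on the log2 scale (SE 0.05), *Plat*, tissue plasminogen activator, had a log2 fold change of -1.49 (SE 0.08), and *Furin*, which cleaves the precursors of MMP11, membrane-type MMPs, ADAMs and ADAMTSs, was higher by 0.51 (SE 0.07).

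The list of inhibitors other than TIMPs held 15 genes of serpins, testicans, cystatins and related proteins, of which 8 were tested, 4 were higher and 3 lower. *Serpinh1* read -1.97, -2.29 and -1.87 in WT and 3.19, 3.18 and 3.46 in IG27 samples, with no overlap. Its log2 fold change was 5.32 (SE 0.14), but its product, HSP47, is a collagen chaperone of the serpin fold and not a protease inhibitor. *Serpine2*, glia-derived nexin, rose by 3.27 (SE 0.19), whereas *Spock1*, the gene of the proteoglycan testican-1, had a log2 fold change of -2.88 (SE 0.17). *Reck*, a membrane-anchored inhibitor of MMPs and of ADAM10, was higher by 0.74 (SE 0.07).

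Of 12 partners that mature or localize ADAM proteases, 10 were tested, 2 were higher and 6 lower. Among the tetraspanins that escort ADAM10, *Tspan15* had a log2 fold change of 1.27 (SE 0.05), while *Tspan14* (-0.84) and *Tspan17* (-1.24) were lower. *Sh3d19*, an adaptor that binds ADAM cytoplasmic tails, had the largest difference of the list (-1.53, SE 0.05). The 3 LGI genes tested, which encode ligands of ADAM11, ADAM22 and ADAM23, were called, beside 70.5% of all genes tested: *Lgi2* was higher by 3.15 and *Lgi3* by 1.60, and *Lgi4* had a log2 fold change of -0.86. *Lgi1* was not tested.

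Of 36 substrates of ADAM shedding, 28 were tested, 8 were higher and 14 lower. *Jag1*, a Notch ligand, read -7.34, -7.58 and -6.94 in WT and -1.28, -1.07 and -1.23 in IG27 samples, not well above background on any WT array, and was at least 23.9-fold higher. *Ereg* and *Areg*, ligands of the epidermal growth factor receptor that ADAM17 releases, were at least 15.5-fold and at least 2.31-fold higher, and *Tnfrsf1b*, a receptor of tumor necrosis factor, was higher by 3.87 on the log2 scale (SE 0.07). *Areg* is named for its fitted difference from WT signal that was not well above background, and its bound is small. Among the lower substrates, *Hbegf*, the gene of HB-EGF, had a log2 fold change of -1.66 (SE 0.10) and *Prnp*, the prion protein gene, one of -1.37 (SE 0.07). The amyloid precursor gene *App* read a difference of 0.02 (SE 0.04) and was not called.

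Of 24 ADAMTS-like proteins and matrix substrates of ADAMTS enzymes, 14 were tested, 7 were higher and 5 lower. *Tnc*, tenascin-C, read -7.97, -7.74 and -8.24 in WT and 1.39, 1.70 and 1.58 in IG27 samples and was at least 160-fold higher. *Papln*, papilin, was at least 45.1-fold and *Adamtsl5* at least 28.3-fold higher. *Ncan*, neurocan, read -0.33, -0.58 and -0.39 in WT and -7.56, -5.50 and -7.29 in IG27 samples, not well above background on either complete IG27 array, and was at least 30.2-fold lower. *Bcan*, brevican, had a log2 fold change of -2.05 (SE 0.05), and *Vcan*, versican, was not called (-0.16, SE 0.14). This list rests on genes dim in 1 group: with only genes that exceeded background on all complete arrays it had 4 called.

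**Figure D5:**
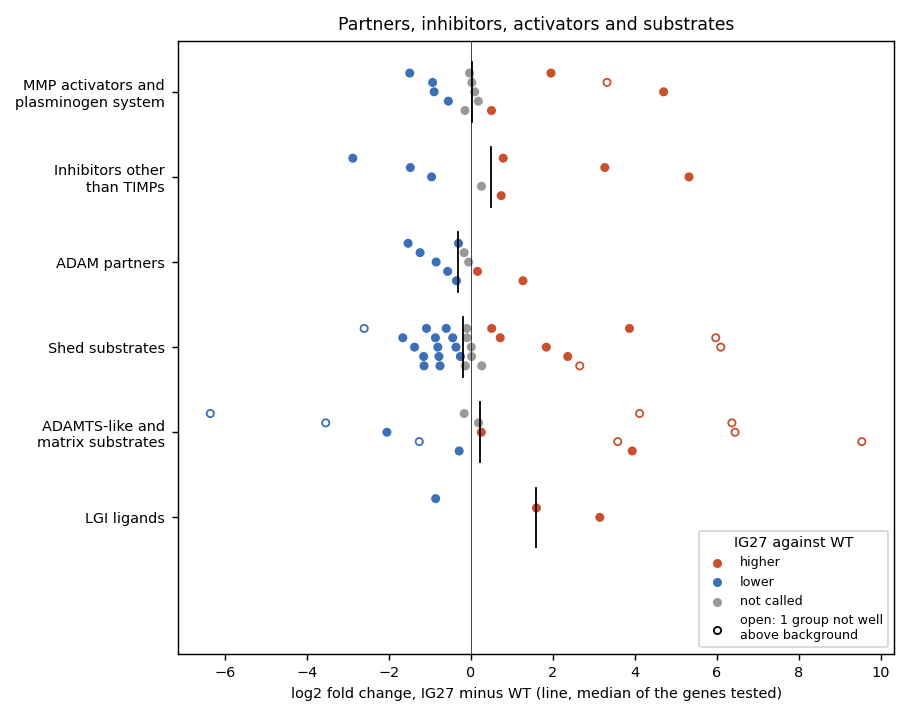
Log2 fold change (IG27 minus WT) of each tested gene of the 6 lists, colored by call, with a line at the median of each list; open points are genes not well above background in 1 group, whose fitted value is no bound. Each list holds genes on both sides of 0, from the fitted -6.35 of *Ncan* to the fitted 9.54 of *Tnc* in the list of ADAMTS-like and matrix genes.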

How the data were processed

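RNA of 3 WT and 3 IG27 samples was labeled with Cy3 and hybridized to 1 slide of single-color Agilent mouse arrays. The authors read each spot with Feature Extraction (version 10.7.3.1 per the file headers, 9.1 per the submitters' processing notes) and deposited its processed signal, an intensity on a linear scale. The scanner output of IG27 replicate 2 held 285 of 62976 spots, so its values came from the deposited value table, which equaled the scanner intensity in 255 of 255 single-spot probes (relative tolerance 1e-04). That table exchanges WT replicates 2 and 3, whose scanner output was used. IG27 replicate 2 thus carries no flags for background or outliers. The number of arrays limits the precision.

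Spots with an outlier flag were left out, and log2 values were centered on the 75th percentile of each array. Probes were named through their accessions, and 32994 of 56605 probes matched a gene. Each gene was represented by its brightest probe among those that exceeded background, by the software's flag, on all complete arrays of 1 group or more. Groups were compared in R 4.3.3 by limma 3.58.1 (lmFit, then eBayes; two-sided), with Benjamini-Hochberg adjustment over 14898 genes and a threshold of 0.05. Steps were tested on simulated data. The members and lists were chosen with earlier results of these data known. Members were given per array by a rule: those called at 2-fold without overlap, 12 set members, the smallest calls and nearest misses. From each list the 4 largest called fitted differences were named, some of them per array. *Furin*, *Reck*, *App*, *Hbegf*, *Prnp*, *Bcan*, *Vcan* and other members given without values per array were named after their values were seen. A gene that the rule named is not reported here. A motif search of protein sequences was planned and not run here. Alternatives were other normalizations, filters, probe rules, moderation, blocks, and each array left out. The normexp alternative took median spot signals of the 5 complete arrays, without IG27 replicate 2, and added an offset of 50. It then applied quantile normalization, so it shares that step with the alternative of that name.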

Additional observations from a re-analysis of the deposited data

How the results depend on the processing

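Of 30 called members, 23 (10 higher and 13 lower) had the same call in each of 17 alternatives that tested them, and none changed sign. Among the 10 higher, *Adamts9*, *Adam23*, *Adamts10* and *Timp4* had passed the main filter through IG27 only. The filter that required background to be exceeded on all complete arrays did not test them, so it gives no check of their calls. The fit on complete scanner output and that without IG27 replicate 2 are the same, which leaves 16 different fits. The called members outside the 23 were *Adam22*, *Adamts7*, *Mmp23*, *Adamts4*, *Adam1a*, *Adam12* and *Timp2*. The number of members called ran from 25 to 32 over the alternatives, and from 25 to 30 when 1 array was left out. It was 32 with quantile normalization, and 26 with the slide row as a block. The latter fit rests on WT replicate 2, since the other WT arrays lie in a row of their own. Over all genes tested 70.5% were called in the main fit, 72.6% with quantile normalization and 60.0% with the slide row as a block. That share ran from 65.8% to 68.1% when 1 array was left out. How often all called genes kept their call over the alternatives was not taken. Members called at 2-fold were 10 in place of 14 both with normexp background correction and with a strict filter (background exceeded on all complete arrays). With the strict filter 7.95% of all genes were called at least 2-fold higher and 10.5% at least 2-fold lower. These shares were not taken for normexp. The median log2 fold change of the members was -0.20 with quantile normalization, 0.19 without a filter on dim probes, where the median of all genes was 0.12, and -0.24 with the strict filter. The strict filter also left 4 called genes of the ADAMTS-like and matrix list in place of 12, by testing fewer genes. *Timp3* turned to 0.029 with normexp and 0.164 with the slide row as a block, and ran from -0.156 to 0.013 when 1 array was left out (0.013 without WT replicate 1), and the cause was not tested. Same-numbered samples deviated with correlations of 0.0118, 0.0395 and 0.0763, so the numbers do not pair them. With the replicate number as a block 31 members were called, 14 higher and 17 lower, beside 69.2% of all genes called. Dim probes limit what can be said of the 38 members not tested.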
